A study of Mus musculus with 8 samples.

Results

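Pou5f1 is the gene of the transcription factor OCT4. It was followed as 1 gene of the 24918 gene rows in the count tables, through its 2 RefSeq accessions, NM_013633 and NM_001252452, which were read apart and as a sum. The counts came from poly(A) RNA of mouse V6.5 embryonic stem (ES) cells, a C57BL/6 and 129 hybrid line that the labels describe as grown in 2i medium, and there were 8 libraries in 4 groups of 2. OCT4-FKBP dTAG was a V6.5 line whose OCT4 is fused to FKBP, given the compound labelled dTag9 for 24 h, a compound of the kind that recruits a ubiquitin ligase to FKBP fusions. OCT4-FKBP DMSO was the same line with DMSO, the solvent, for 24 h. WT no LIF was V6.5 without the fusion, from which the cytokine LIF had been withdrawn for 5 days, and WT LIF was V6.5 with LIF. The labels do not say at which end of OCT4 the tag sits, whether the tagged line is 1 clone, or whether replicates were separate cultures, so the p-values reflect how far these libraries spread, and that spread may be technical only. No WT library received dTAG, and the protein was not measured.

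OCT4 is a POU-domain factor that binds an octamer motif, often beside SOX2, at enhancers of ES cells. It is needed for the inner cell mass and for the pluripotent state, and ES cells that lose it take on trophoblast features. Its own gene is among the genes it binds, and the proximal promoter of Pou5f1 is known for a GC box next to a site for nuclear receptors, where activating and repressing receptors compete.

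Pou5f1 lies on the plus strand of chromosome 17 and has 2 transcription starts in the RefSeq table of build GRCm38, 2775 bases apart. The 250 bases before each start are shown because the 2 accessions differ in where the transcript begins. The table does not pair starts with accessions. Capitals mark the GC box GGGCGG and the nuclear receptor motif AGGTCA, searched on both strands.
Upstream start, chr17:35505782-35506031: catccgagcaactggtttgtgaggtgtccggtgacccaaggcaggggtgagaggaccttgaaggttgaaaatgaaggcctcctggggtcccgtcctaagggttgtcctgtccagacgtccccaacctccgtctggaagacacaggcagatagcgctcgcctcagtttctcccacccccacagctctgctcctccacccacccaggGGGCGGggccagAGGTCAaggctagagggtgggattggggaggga
Downstream start, chr17:35508557-35508806: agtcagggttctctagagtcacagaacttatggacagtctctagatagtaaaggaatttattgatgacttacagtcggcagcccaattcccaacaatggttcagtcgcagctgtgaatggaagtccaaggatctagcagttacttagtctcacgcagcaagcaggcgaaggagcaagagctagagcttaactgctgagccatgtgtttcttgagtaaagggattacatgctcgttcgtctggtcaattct
The upstream window held 1 GC box, 45 to 40 bases before the start, and 1 nuclear receptor motif, 33 to 28 bases before it, which do not overlap. Among 32851 windows of the same length before RefSeq starts, 32.7% held the GC box, 14.0% held the nuclear receptor motif and 3.03% held both. The downstream window held neither. The octamer ATGCAAAT was in neither window and in 1.60% of all windows. Sequence of the gene outside these 2 windows, enhancers included, was not searched.

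In GENCODE release M21, also on GRCm38, the full-length transcript Pou5f1-201 has 5 exons and 1362 bases. Exon 1 (chr17:35506018-35506483, 466 bases) ends before the downstream RefSeq start, and the other 4 exons, 896 bases, lie after it. Exon 1 thus holds 34.2% of the transcript, and it carries 384 coding bases, the first 128 codons of the reading frame, which encode the N-terminal part of OCT4. Its first 300 coding bases (chr17:35506100-35506399) are shown because exon 1 is the sequence that a transcript from the upstream start has and one from the downstream start lacks; capitals mark the start codon.
Exon 1, coding: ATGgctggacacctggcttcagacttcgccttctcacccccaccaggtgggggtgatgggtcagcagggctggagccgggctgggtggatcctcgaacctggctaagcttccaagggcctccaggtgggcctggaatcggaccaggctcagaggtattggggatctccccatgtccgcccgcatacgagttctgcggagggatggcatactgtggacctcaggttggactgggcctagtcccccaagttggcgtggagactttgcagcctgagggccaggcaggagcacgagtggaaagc

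**Figure D1:**
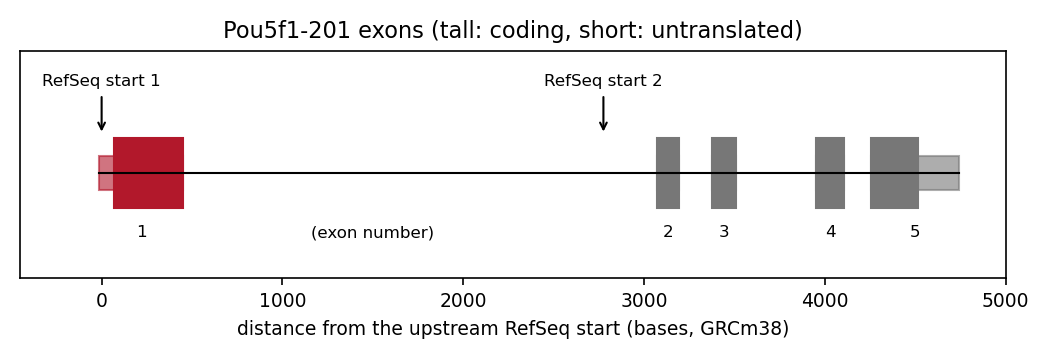
Exons of the full-length Pou5f1 transcript against the distance in bases from the upstream RefSeq start; tall boxes are coding, short boxes untranslated, and arrows are the 2 RefSeq starts. Exon 1, in red, is the only one of the 5 that ends before the downstream start, which lies 2775 bases from the upstream one.

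The counted reads of Pou5f1 lay almost wholly on NM_013633, the accession known as the full-length transcript. Over the 8 libraries it held 14341 of 14345 reads, 99.97% (exact Clopper-Pearson 95% interval 99.93% to 99.99%). NM_001252452, the accession of a shorter transcript, held 4 reads. These were 1 in each dTAG library, 0 in both DMSO libraries, 1 in WT no LIF replicate 1, and 1 in WT LIF replicate 2. In every group it was at most 0.126% of the Pou5f1 reads. With no read among the 1436 of the DMSO group, 3 reads of that total, a share of 0.209%, is the limit used for a count of 0, and these intervals and limits cover counting error only. NM_001252452 did not pass the filter on low counts, so no test of its level or of the split between accessions was made. If reads in shared sequence were set aside, this split compares only the sequence that each accession has alone, and it is no proportion of isoforms.

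Ambiguous reads, which carry no gene name, were 42.5% of the sum of counted and ambiguous reads. A read in sequence that both accessions share would be among them if each accession was counted as a feature of its own; no source used here gives the counting mode. The Pou5f1 values are therefore compared between groups only, and not with levels of other genes. In counted reads, which are not levels, Pou5f1 had more than all but 24 of the 4170 genes with 2 accession rows. Of these genes 1161 had no read. Of 1098 such genes with at least 100 reads, 67.8% had at least 99% of their reads on 1 accession.

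By depth-normalised counts, Pou5f1 was lowest in the tagged line and highest in WT with LIF. Levels are given in CPM, the usual depth-normalised read count, with library sizes scaled by TMM. Pou5f1 stood at 84.6 and 90.2 CPM in the dTAG libraries, from 773 and 813 reads. In the DMSO libraries it stood at 77.5 and 77.8 CPM, from 552 and 884 reads. The WT no LIF libraries held 205 and 170.3 CPM, from 2401 and 1249 reads, and the WT LIF libraries held 425 and 336 CPM, from 4816 and 2857 reads. No 2 of the 4 groups overlapped, and both groups of the tagged line lay below both WT groups. Group means were 87.4 ± 3.94, 77.6 ± 0.218, 188 ± 24.5 and 381 ± 63.0 CPM for dTAG, DMSO, WT no LIF and WT LIF (SD, n = 2 each). In the order DMSO, dTAG, WT no LIF, WT LIF, the only neighbours whose difference did not pass the test were DMSO and dTAG.

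**Figure D2:**
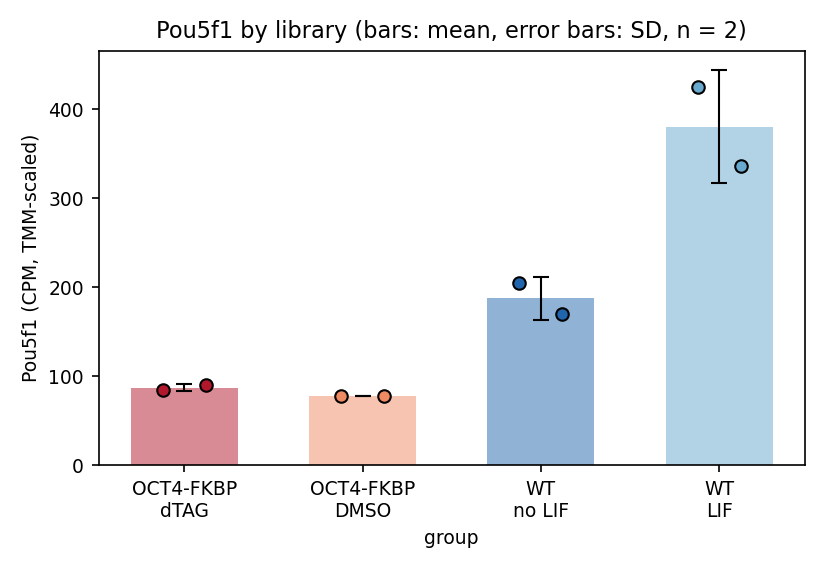
Pou5f1 in CPM on the y axis for the 4 groups on the x axis; points are libraries, bars the mean and error bars the SD of 2 libraries. The 4 tagged libraries sit between 77.5 and 90.2 CPM and the 4 WT libraries between 170.3 and 425 CPM.

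The first comparison asked whether the transcript moved when the protein was targeted for 24 h. Both dTAG libraries held more Pou5f1 than both DMSO libraries, by 1.13-fold. The log2 fold change of 0.17 (SE 0.10, edgeR adjusted p = 0.18) did not pass, with a 95% interval of the fold from 0.976 to 1.30. Of all 10311 genes tested, 40.5% were called in this comparison, 20.1% higher and 20.3% lower. The difference passed in a fit of only the 4 OCT4-FKBP libraries (log2 fold change 0.17, edgeR adjusted p = 0.027) and without WT LIF replicate 2 (0.18, edgeR adjusted p = 0.048). The SE was 0.06 and 0.07 there.

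The second comparison asked what 5 days without LIF did in WT. Pou5f1 fell 2.02-fold (95% interval 1.80 to 2.28), with a log2 fold change of -1.02 (SE 0.08, edgeR adjusted p = 3.5e-11). The higher of the 2 libraries without LIF, at 205 CPM, was below the lower of the 2 with LIF, at 336 CPM. In this comparison 68.4% of genes were called, 34.0% higher and 34.4% lower, and 1795 genes had a lower log2 fold change than Pou5f1.

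The third comparison set the tagged line in DMSO against WT with LIF. Pou5f1 was 4.91-fold lower in the tagged line (95% interval 4.31 to 5.59), with a log2 fold change of -2.30 (SE 0.09, edgeR adjusted p = 3.5e-16). The 77.5 and 77.8 CPM in DMSO stood against 425 and 336 CPM in WT with LIF. Here 40.6% of genes were called, 18.5% higher and 22.1% lower. Of the 10311 genes, 96 had a lower log2 fold change, and Pou5f1 was at rank 8 by p. Fusion tag, solvent and line history differ together here and cannot be told apart, and the labels name no batch. If reads in shared sequence were set aside, the counts cover only part of the transcript. Whether the fusion changes which reads are counted for this gene was not tested.

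Between the middle neighbours, dTAG and WT no LIF, Pou5f1 was 2.16-fold lower in dTAG (95% interval 1.89 to 2.46; log2 fold change -1.11, SE 0.09, edgeR adjusted p = 4.3e-11), where 68.3% of genes were called, 34.0% higher and 34.4% lower. Line and treatment both differ there. The responses to dTAG and to LIF withdrawal also differed from each other. The dTAG response less the LIF response was 1.19 on the log2 scale (SE 0.13, edgeR adjusted p = 1.8e-08). For this difference 55.0% of genes were called, 28.6% higher and 26.4% lower. The difference sets 24 h in the tagged line against 5 days in WT, so line, treatment and time cannot be told apart. For NM_013633 alone, in a fit of 10560 accessions, the log2 fold changes of the first 3 comparisons were 0.17, -1.01 and -2.27.

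**Figure D3:**
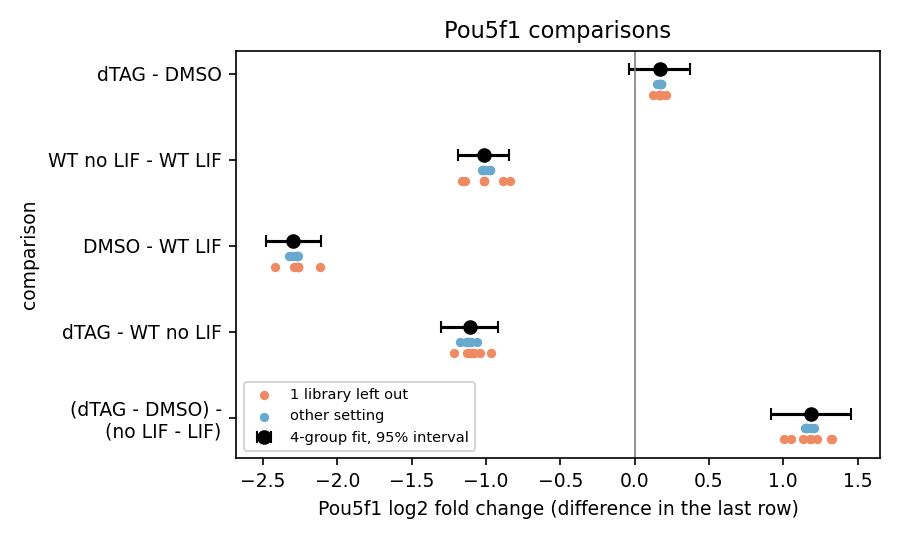
Log2 fold change of Pou5f1 on the x axis for 5 comparisons on the y axis; black points with bars are the estimate and its 95% interval from the fit of all 8 libraries, orange points leave out 1 library and blue points change another setting. The dTAG minus DMSO interval spans 0, and the DMSO minus WT LIF estimate of -2.30 is the farthest from 0.

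Pou5f1 varied more between the replicates of WT than most genes did. WT LIF replicate 1 exceeded replicate 2 by 0.34 on the log2 scale. Of 3595 genes with a mean of at least 50 CPM, 80 had a wider gap between these libraries in either direction, 2.23%, and the median gap was 0.09. In WT no LIF, replicate 1 exceeded replicate 2 by 0.27, with 104 genes, 2.89%, wider. In the tagged line the gaps were small: replicates differed by 0.09 with dTAG, where 23.4% of genes were wider, and by 0.01 with DMSO, where 93.7% were wider. In CPM before TMM scaling, the exact Poisson 95% interval was 202 to 219 in WT no LIF replicate 1 and 163 to 182 in replicate 2. It was 414 to 438 in WT LIF replicate 1 and 331 to 356 in replicate 2, so the intervals did not overlap within either WT group, while those of dTAG and of DMSO did. They cover counting error only, not the spread between libraries. Replicate 1 was also the deeper library in both WT groups, with 11417897 counted reads against 7238413 in WT no LIF and 11308343 against 8323172 in WT LIF. Depth's part in the gap was not tested. The dTAG libraries had 9430702 and 9179808 counted reads and the DMSO libraries 7221451 and 11447468.

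**Figure D4:**
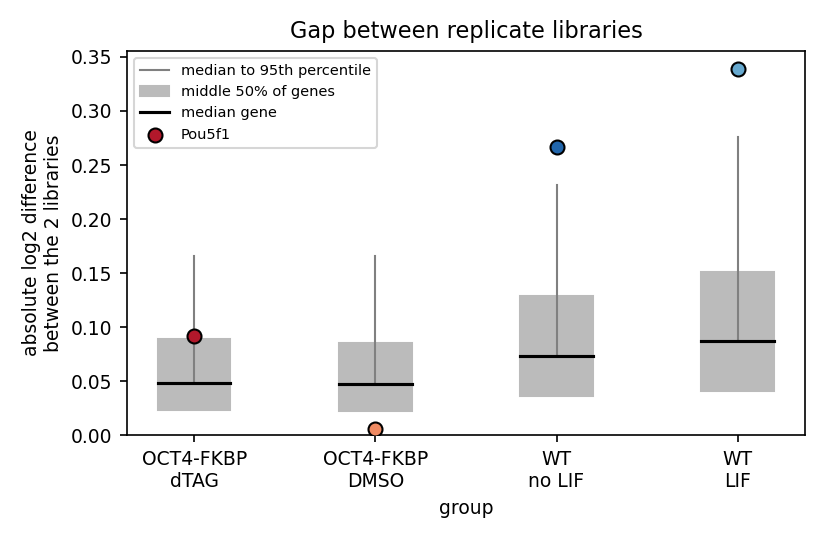
Absolute log2 difference between the 2 libraries of each group; grey boxes are the middle 50% of 3595 genes with a mean of at least 50 CPM, black lines the median gene, thin lines reach the 95th percentile, and coloured points are Pou5f1. In both WT groups Pou5f1 lies above the 95th percentile, at 0.27 and 0.34, and in DMSO it lies below the median gene.

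The genes most like Pou5f1 across the 8 libraries were sought among 7048 other genes with a mean of at least 5 CPM, on log2 CPM. By the smallest root mean square difference after centring each gene on its mean, the first 3 were Il13ra1, a cytokine receptor subunit (0.23), Rassf4, a RAS-association domain protein (0.28), and Ppic, the peptidyl-prolyl isomerase cyclophilin C (0.30). Apela, a secreted peptide ligand, was at place 5 (0.36). By Pearson's r the first 5 were 0610012G03Rik (0.98), the immediate early gene Ier2 (0.98), Rmnd5a, a ubiquitin ligase subunit (0.98), Ppic (0.98) and Rassf4 (0.98). These r describe 8 libraries that fall into 4 groups, and 74 genes had an r over 0.9. The first 3 by r had a root mean square difference of 0.68 to 0.72. Like Pou5f1, they were lower in all 4 tagged libraries than in all 4 WT libraries, and none of the 3 passed for dTAG against DMSO.

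Rassf4 and Ppic were on both lists. Rassf4 had 5.91 and 5.21 CPM with dTAG, 6.88 and 5.90 CPM with DMSO, 13.9 and 13.2 CPM in WT no LIF, and 39.5 and 39.3 CPM in WT LIF. Its log2 fold changes were -0.18 for dTAG against DMSO, -1.53 for no LIF against LIF, and -2.64 for DMSO against WT LIF. The same 3 values for Ppic were 0.21, -0.87 and -1.72. Neither passed with dTAG (edgeR adjusted p = 0.51 and 0.11), as Pou5f1 did not. Apela differed in this point: it held 65.6 and 66.7 CPM with dTAG against 41.0 and 41.8 CPM with DMSO, and rose by 0.67 on the log2 scale (edgeR adjusted p = 9.2e-07).

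**Figure D5:**
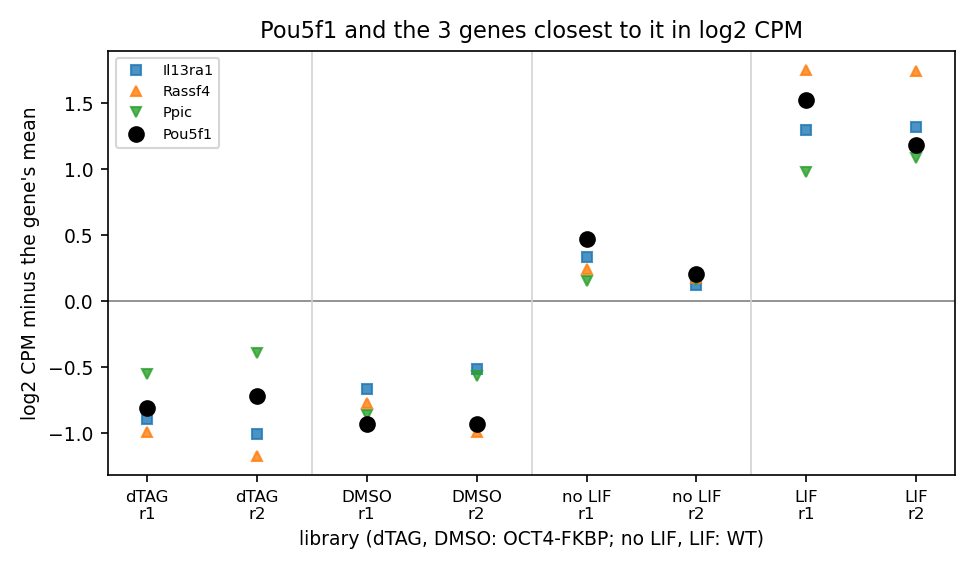
Log2 CPM minus each gene's mean over the 8 libraries on the y axis, by library on the x axis, for Pou5f1 (black) and the 3 genes with the smallest root mean square difference from it. All 4 genes are below their mean in the 4 tagged libraries and above it in the 4 WT libraries.

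Of 24 listed partner factors, 17 could be tested. With dTAG 13 of these fell and 2 rose, with a median log2 fold change of -1.11 against 0.00 for all genes, and without LIF 10 fell and 5 rose. Over all genes 20.3% fell and 20.1% rose with dTAG, and 34.4% fell and 34.0% rose without LIF. Between DMSO and WT LIF 3 were lower and 6 higher, where 22.1% of all genes were lower and 18.5% higher, with a median of 0.15 against -0.03 for all genes. The 3 lower ones, Nr0b1 (log2 fold change -0.38), Smad1 (-0.52) and Zfp143 (-0.29), compare with -2.30 for Pou5f1. Sox2, the DNA-binding partner of OCT4, had 845 ± 13.6 CPM in DMSO and 815 ± 69.2 CPM in WT LIF (SD, n = 2 each), a log2 difference of 0.05 (edgeR adjusted p = 0.50).

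Other members with the smallest p were naive pluripotency factors. Tfcp2l1 had log2 fold changes of -1.80 with dTAG and -5.06 without LIF, Klf2 fell by 2.22 on the log2 scale with dTAG, and Klf4 fell by 4.90 without LIF and was 0.56 higher in DMSO than in WT LIF. Dppa2, a chromatin regulator of ES cells, was 2.96-fold higher in DMSO than in WT LIF. Nanog, Stat3 and Tcf3 had 0 reads, Esrrb 1 and Zfp281 2, each with 2 or more accessions, where a low count says nothing of expression.

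Genes listed as OCT4-SOX2 targets were read next, and binding sites in them were not examined. Of 18 tested of 22 listed, 15 fell and 1, Lin28a, rose with dTAG, with a median log2 fold change of -1.35. For comparison, 20.3% of all genes were lower and 20.1% higher in dTAG than in DMSO, with a median of 0.00. Tdgf1, the Nodal co-receptor, had 45.5 and 54.2 CPM with dTAG against 601 and 604 CPM with DMSO (log2 fold change -3.59, edgeR adjusted p = 1.3e-22), while Pou5f1 stood at 84.6 and 90.2 against 77.5 and 77.8 CPM in the same libraries. Lin28a, an RNA-binding protein, rose 5.36-fold with dTAG and 21.6-fold without LIF. After LIF withdrawal 9 of the 18 fell and 6 rose, where 34.4% of all genes fell and 34.0% rose, with Fbxo15, an F-box gene used as a pluripotency reporter, 10.8-fold lower. Between DMSO and WT LIF, 4 were lower, namely Fgf4 (log2 fold change -1.01), Dppa5a (-0.75), Lefty1 (-0.47) and Tdgf1 (-0.24), and 6 were higher, where 22.1% of all genes were lower and 18.5% higher. The median was 0.03, against -0.03 over all genes, and Pou5f1 was at -2.30.

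Genes listed as regulators of the Pou5f1 gene were read as activators and repressors, and whether each acts on the gene was not tested. Of 14 tested activators of 18 listed, with dTAG 8 fell and Med12 rose, without LIF 7 fell and Rarg and Foxd3 rose, and between DMSO and WT LIF 2 were lower, Zfp143 and Med1, and 3 higher. The median log2 fold changes were -0.63, -0.37 and 0.04. All 8 that fell with dTAG, Sox2, Tfcp2l1, Klf2 and Klf4 among them, are also on the list of partners, so the lists are not separate evidence. No tested activator outside the partner list passed as lower with dTAG, and Med12, which rose, is outside it. Klf5, on both too, was 0.30 higher in DMSO than in WT LIF on the log2 scale. Of 12 tested repressors of 16 listed, with dTAG 4 rose (Cdx2, Zfp462, Mbd2 and Nr6a1) and Hdac2 fell. Without LIF 8 rose, and Hdac1 and Hdac2 fell. Between DMSO and WT LIF 2 were higher, Cdx2 and Hdac1, and 3 lower, Zfp462, Nr6a1 and Kdm1a. The medians were 0.67, 0.83 and 0.04. Among the tested genes, 8 of the 12 repressors and 5 of the 14 activators have 2 or more accessions and may be only partly counted. The shares over all genes are those given for the partner factors, and counts of 2 or 3 in DMSO against WT LIF are near them on both lists.

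Cdx2, the trophectoderm factor that acts against OCT4, had 192 and 169 CPM with dTAG, 30.7 and 35.0 CPM with DMSO, 2.73 and 1.5 CPM in WT no LIF, and 0.530 and 1.06 CPM in WT LIF. Every tagged library was above every WT library, the reverse of Pou5f1. Its log2 fold change was 5.43 for DMSO against WT LIF (SE 0.23, edgeR adjusted p = 1.5e-15) and 2.44 for dTAG against DMSO (SE 0.097, edgeR adjusted p = 5.2e-17). Zfp462, a zinc finger gene, rose 2.27-fold with dTAG and 1.71-fold without LIF, and was 1.49-fold lower in DMSO than in WT LIF. Dnmt3b, a DNA methyltransferase with 9 accessions, rose without LIF by 3.82 on the log2 scale, with 125 reads against 9.

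Nuclear receptors from these lists are named here for the AGGTCA motif in the upstream window, after their values were seen. Most were sparsely counted, and binding to the motif was not measured. Nr6a1, a receptor known to repress Pou5f1, had 39 reads with dTAG against 12 with DMSO, and 90 without LIF against 47 with it. Its log2 fold changes were 1.71 with dTAG (edgeR adjusted p = 0.010), 1.02 without LIF (edgeR adjusted p = 0.0084), and -1.85 for DMSO against WT LIF (edgeR adjusted p = 0.0049). Nr5a2, a receptor known to activate Pou5f1, had 14 reads with dTAG against 24 with DMSO, and 1 without LIF against 37 with it. Only its fall without LIF passed (edgeR adjusted p = 1.9e-05). Nr2f2, listed as a repressor, had 38 reads over all libraries, 27 without LIF against 2 with it (log2 fold change 3.64, edgeR adjusted p = 0.00057). Rarg, listed as an activator, had 339 reads, 193 without LIF against 50 with it (log2 fold change 2.00, edgeR adjusted p = 1.8e-08). Neither passed with dTAG or for DMSO against WT LIF. Nr2f1 had 4 reads over all libraries, Rxra 1 and Nr5a1 0. All of these genes have 2 or 3 accessions, so the counts cover part of each transcript.

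Of 15 listed genes of the POU family, 8 could be tested, and 0 were higher and 4 lower in DMSO than in WT LIF. With dTAG 5 fell and 0 rose, and without LIF 2 rose and 4 fell. Of the 5 that fell with dTAG, Pou4f2 had 0 reads with dTAG against 12 with DMSO, Pou6f1 4 against 16, and Pou3f3 10 against 28. The shares over all genes were 18.5% higher and 22.1% lower between DMSO and WT LIF, and 20.1% higher and 20.3% lower with dTAG. Without LIF they were 34.0% higher and 34.4% lower, so the counts without LIF are read as no result about the family. Pou2f3, a factor of tuft cells and skin, had 0.766 and 1.77 CPM with dTAG against 23.7 and 22.7 CPM with DMSO, and 4.78 and 3.55 CPM without LIF against 85.1 and 104.6 CPM with LIF. It was 4.08-fold lower in DMSO than in WT LIF, and with dTAG it fell by 4.18 on the log2 scale (SE 0.24; adjusted p = 1.3e-13 by edgeR). Pou3f1, which encodes OCT6 of the epiblast, rose 15.4-fold without LIF and fell by 2.12 on the log2 scale with dTAG. Pou5f2, the nearest paralogue by name, had 3 reads in all 8 libraries.

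Genes of OCT4 protein turnover and of ubiquitin ligases made a further list. Of 13 tested of 16 listed, with dTAG 4 rose and 3 fell, without LIF 3 rose and 3 fell, and between DMSO and WT LIF 2 were higher and 3 lower, with medians of 0.10, 0.00 and 0.09. Over all genes 20.1% rose and 20.3% fell with dTAG, 34.0% rose and 34.4% fell without LIF, and 18.5% were higher and 22.1% lower in DMSO, so these counts show nothing particular to the list. Usp7, a deubiquitinase, fell by 0.53 and Cul4a, a cullin of ubiquitin ligases, rose by 0.41 with dTAG on the log2 scale. Usp44, another deubiquitinase, rose by 3.96 and Cul4a by 0.94 without LIF. Nedd4 was 0.50 lower in DMSO than in WT LIF. Fkbp1a, the endogenous FKBP12 gene, had 2 reads over 8 accessions, and Crbn 19 reads over 2.

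The neighbours of Pou5f1 on the chromosome had log2 fold changes between the lines of smaller size than its -2.30. The next gene in the RefSeq table, Tcf19, had 9 reads over 3 accessions and was not tested. Of the 4 RefSeq neighbours on each side, a list added after the values were seen, 4 could be tested, and between DMSO and WT LIF Cchcr1 was lower by 0.35 on the log2 scale, H2-Q10 by 1.39 and H2-Q4 by 1.86, while Psors1c2 was higher by 1.17. Group means of H2-Q10, H2-Q4 and Psors1c2 were 11.1 CPM at most, and H2-Q genes have near-identical copies among which reads can be split. The 8 tested genes of the wider list of 12 gave 1 higher and 4 lower, with Flot1 at -0.82 and Ier3 at -1.07, where 18.5% of all genes were higher and 22.1% lower. With dTAG 2 of these 8 fell, Psors1c2 (-2.34) and Vars2 (-0.29), and 0 rose; without LIF 4 rose and 4 fell, Vars2 by 0.89. With dTAG 20.3% of all genes fell, and without LIF 68.4% were called.

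The libraries were checked against markers of ES cells and of other cell types. Of 10 ES cell markers 8 were tested, Nanog had 0 reads and Esrrb 1. All 8 tested markers are also on the list of partners or of targets, so they are not separate evidence. Their summed level was 2370 to 2387 CPM with dTAG against 7321 to 7367 CPM with DMSO. Without LIF it was 2202 to 2209 CPM against 7639 to 7770 CPM with LIF. Tfcp2l1 alone had means of 1027 CPM with dTAG, 3573 with DMSO, 96.0 without LIF and 3179 with LIF. With dTAG all 8 fell, where 20.3% of all genes fell. Without LIF 6 fell and 2, Tdgf1 and Utf1, rose, where 34.4% of all genes fell and 34.0% rose. Trophoblast markers, 5 tested of 8, summed to 186 to 207 CPM with dTAG, mostly Cdx2, against 35.9 to 40.0 CPM with DMSO, and to 92.7 to 103 CPM without LIF against 6.44 to 7.41 CPM with LIF; Gata3 had 0 reads and Elf5 1. Fibroblast markers, 5 tested of 8, summed to 145 to 148 CPM without LIF, mostly Acta2, against 9.45 to 9.76 CPM with LIF, and to 16.3 to 19.5 CPM with dTAG against 20.8 to 23.2 CPM with DMSO; Postn and Dcn had 0 reads. Primitive endoderm markers, 2 tested of 7, summed to 16.9 to 20.6 CPM with dTAG against 0.421 to 1.06 CPM with DMSO, and to 4.95 to 5.73 CPM without LIF against 1.59 to 1.76 CPM with LIF. Gata6, a factor of that lineage, rose 30.9-fold with dTAG (edgeR adjusted p = 3.5e-13) and made up all of the dTAG sum. Sox7, the other tested marker, had 0 reads with dTAG and 4 with DMSO, a difference that did not pass (edgeR adjusted p = 0.062). It had 50 reads without LIF against 6 with LIF. Gata4 and Foxa2 had 0 reads. The untested markers named here for low counts, Nanog, Esrrb, Gata3, Elf5, Postn, Dcn, Gata4 and Foxa2, each have 2 or more accessions, so their counts do not show that they were absent. In bulk RNA, fewer cells of a type and less RNA per cell cannot be told apart, and the part of these cell types in the Pou5f1 differences was not tested.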

How the data were processed

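Poly(A) RNA of 8 libraries was sequenced as 40 bp single-end reads, per the labels' protocols. The authors deposited whole-number read counts per RefSeq accession. HISAT2, HTSeq and build mm9 are named in the submitters' processing notes; their versions, strand setting and counting mode are not given in the sources used here. Of 41565 accessions, 41325 were paired with a symbol through RefSeq and 126 through GENCODE, and counts were summed per gene. Libraries held 7221451 to 11447468 counted reads. Rows that name no gene were left out, and ambiguous reads were 42.5% of counted plus ambiguous reads.

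Genes were tested with edgeR 4.0.16 (R 4.3.3, limma 3.58.1): filterByExpr, TMM, quasi-likelihood F test on 4 groups of 2 with 4 residual degrees of freedom, and Benjamini-Hochberg adjustment over 10311 genes with a threshold of 0.05. The scripts were tested on simulated data. Alternatives were other scalings and filters, DESeq2 1.42.0, a replicate block, a fit of the compared groups alone, and leaving out each library. Named genes were the 5 most like Pou5f1 by each measure, the 2 members of each list with the smallest adjusted p in each of the first 3 comparisons, and members behind counts of 5 or fewer; others are said to be chosen after their values were seen or were listed for their low counts. Some genes that this rule names are not reported here. Pou5f1 and all lists were chosen with earlier results of these data known. Sequences are from RefSeq and GENCODE on GRCm38, and no mm9 coordinate is given.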

Additional observations from a re-analysis of the deposited data

How the results depend on the processing

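Of the alternative values, 161 kept the direction and side of the threshold, or moved by less than the spread, 3 came to pass it and 2 moved further. The dTAG against DMSO difference of Pou5f1 passed with only the libraries of these 2 groups (log2 fold change 0.17, edgeR adjusted p = 0.027), as did NM_013633 (0.16, edgeR adjusted p = 0.031), and without WT LIF replicate 2 (0.18, edgeR adjusted p = 0.048). Leaving out 1 library gave 0.12 to 0.21 (edgeR adjusted p = 0.048 to 0.46), and DESeq2 gave 0.18 (adjusted p = 0.46). The cause was not tested. Without 1 library, the log2 fold change was -1.16 to -0.84 for no LIF against LIF, -2.42 to -2.11 for DMSO against WT LIF, -1.22 to -0.96 for dTAG against WT no LIF, and 1.005 to 1.33 for the difference of responses. The share of NM_013633 was 99.96% to 100% in WT no LIF and 99.97% to 100% in WT LIF, which 1 read decides. With a replicate block, dTAG against DMSO was 0.16 (edgeR adjusted p = 0.15), and the block changed no other call for Pou5f1. The log2 differences of replicate 1 less replicate 2, over 3595 genes, had correlations of -0.06 to 0.15 between groups. The replicate numbers were therefore not taken to pair libraries. Where leaving out a library left 1 in its group, that library was assumed to vary like the other groups.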
